A study of Homo sapiens with 15 samples.

Results

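The clustered protocadherins were taken from the deposited gene table by name: every row named PCDHA, PCDHB or PCDHG followed by a number or by a letter and a number, without the pseudogenes whose names end in P. This gave 54 of the 60675 genes in the table, of which 16 are PCDHA, 16 are PCDHB and 22 are PCDHG genes. All 54 lie on the plus strand of chromosome 5 (GRCh38, GENCODE 29). The PCDHA genes span 140786136 to 141012347, the PCDHB genes 141051135 to 141249365 and the PCDHG genes 141330571 to 141512981. PCDHA14 was kept because its name passes the rule, although GENCODE annotates it as a transcribed pseudogene.

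Protocadherins are cell surface proteins of the cadherin family that bind copies of themselves on neighbouring cells. In neurons, each cell switches on a small and partly random set of clustered protocadherin promoters, which gives it a surface identity and keeps its own branches apart. In the PCDHA and PCDHG clusters every gene has its own first exon, with its own promoter, that is spliced to 3 constant exons shared by the whole cluster, whereas PCDHB genes consist largely of a single exon of their own. Promoter choice is known to depend on CTCF and on cohesin, the ring complex that contains SMC3, and promoters that are not used are kept silent by DNA methylation and by SMCHD1. PCDHAC1, PCDHAC2, PCDHGC3, PCDHGC4 and PCDHGC5 form the C type, whose promoters are regulated apart from the others.

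The libraries come from HT1080, an established human fibrosarcoma line, and measure total RNA after depletion of ribosomal RNA. All 5 groups received a lysine deacetylase (KDAC) inhibitor, and each has 3 libraries, described by the study as biological replicates. In 6CD1m cells the endogenous KDAC6 gene carries the H216A substitution, in the first catalytic domain, and in 6CD2m cells it carries H611A, in the second; both lines were given 1 μM Tubastatin A, a KDAC6 inhibitor, over 2 days. 8CDm cells carry H143A in KDAC8, which removes its catalytic activity, and were given 5 μM PCI-34051, a KDAC8 inhibitor, over 2 days. WT cells were given either inhibitor at the same dose over 14 days. The mutations were made in the endogenous genes by CRISPR/Cas9, and the mutant proteins are still expressed. No untreated library and no WT library at 2 days is analysed here. Where a mutant line is set against WT cells, the effect of the line and that of the shorter exposure therefore cannot be told apart. Whether a mutant line was grown from 1 clone is not given in the sources used here.

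Library totals ran from 10932437 to 19983699 counts, and the 6CD1m libraries were the shallowest, at 10932437 to 14068212. HDAC6, the gene of KDAC6, was at 12.4 to 14.2 CPM (the count relative to the scaled library total) in 6CD1m libraries, 22.9 to 25.1 in 6CD2m, 17.9 to 22.1 in 8CDm and 23.4 to 34.2 in WT libraries, and HDAC8, the gene of KDAC8, was at 12.6 to 19.8 in all 15 libraries. A missense mutation need not change either level, so these values do not check the labels. By edgeR, HDAC6 was lower in 6CD1m than in WT cells on Tubastatin A (log2 fold change -0.97, SE 0.12, adjusted p = 0.000241). It was also lower in 8CDm than in WT cells on PCI-34051 (-0.66, SE 0.12, adjusted p = 0.000636). In 6CD2m cells HDAC6 was higher than in 6CD1m cells (0.90, SE 0.12, adjusted p = 5.42e-05) and did not differ from WT cells (-0.08, SE 0.12, adjusted p = 0.676). All 8 mesenchymal markers (VIM, FN1 and others) were above 1 CPM in every library, with a summed level of 6663 to 11410 CPM, against 3.76 to 14.0 for 5 epithelial markers. The 6 neuronal markers summed to 8.29 to 10.8 CPM in the 6CD2m and 10.1 to 10.4 in the 8CDm libraries, and to 14.5 to 24.1 in the others. SNAP25, a synaptic protein gene, had group means of 4.31 and 5.53 CPM in 6CD2m and 8CDm and of 13.0 to 16.7 in the others, and STMN2 had 0 counts in 4 of the groups. The lower sum in these groups was that of SNAP25. The other 3 tested neuronal markers, SYT1, RBFOX3 and GAP43, passed in none of the comparisons of these groups with WT cells, with log2 fold changes of 0.05, 1.62 and 0.46 for 6CD2m and of 0.77, 0.88 and -0.24 for 8CDm cells. The part of these markers in the results was not tested. The 8CDm libraries stand apart in genes of the Y chromosome, with 74 to 99 counts summed over 14 tested protein-coding genes beside 3293 to 10955 in the other groups, and its part in the 8CDm results was not tested.

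Most promoters of these genes share a short conserved element around the letters CGCT, in which the clusters differ. It is shown for PCDHB genes that were higher in a mutant line, for the PCDHA genes that were highest in 6CD2m cells, and for the PCDHG genes on which the results below turn. For PCDHB1, the stretch around CGCT that is most like the others is given for contrast. It shares at most 15 of 26 bases with the stretch of any other member, against 22 to 26 for the others shown. Each line gives 26 bases on the plus strand of chromosome 5 (RefSeq, GRCh38.p14) with the CGCT core in capitals.
PCDHB2 (chr5:141094546-141094571): gagacgcggggtggCGCTgcagcctt
PCDHB13 (chr5:141213867-141213892): aggacgcgtggtggCGCTgcaggata
PCDHB15 (chr5:141245316-141245341): acaacgcatggtggCGCTgcaggcta
PCDHB16 (chr5:141182312-141182337): agaacgcgtggtggCGCTgcaggtta
PCDHB1 (chr5:141051276-141051301): ctggggagttgagtCGCTcaatgcaa
PCDHA6 (chr5:140827899-140827924): gagccgcatgatgtCGCTgtctacca
PCDHA10 (chr5:140855843-140855868): aagccaccggatgtCGCTgtcgtcca
PCDHGB4 (chr5:141387619-141387644): ctgactctgggcgcCGCTgttggcca
PCDHGB5 (chr5:141397865-141397890): ctgactctgggcgcCGCTgttggcca
PCDHGC3 (chr5:141475882-141475907): gggactctgtgtgcCGCTgtcggcca

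RefSeq promoters, from 250 bases before to 50 bases after the start, were found for 47 of the 54 genes, 13 PCDHA, 14 PCDHB and 20 PCDHG. CGCT, read on both strands, was present in 12 of the 13 PCDHA, in all 14 PCDHB and in all 20 PCDHG promoters, beside 70.0% of all 35116 promoters. With the bases before the core, the clusters separate. TGGCGCT, which contains CGCT, was in 13 of 14 PCDHB promoters, all but that of PCDHB1, in 3 of 20 PCDHG promoters and in 4.08% of all promoters. TGTCGCT was in 10 of 13 PCDHA promoters, 1 PCDHB promoter and 3 PCDHG promoters, beside 1.76% of all. Both of these longer motifs were chosen after the sequences were seen. Both partial CTCF motifs that were searched were in few or none of these promoters: the one that can overlap TGGCGCT was in 2 of 14 PCDHB promoters and 2.37% of all, the other in 1 PCDHB promoter and 7.33% of all, and no PCDHA or PCDHG promoter held either. The elements of PCDHGB4 and PCDHGB5 were identical at all 26 bases, the only such pair among the members.

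The clusters were used at very different levels. PCDHGC3 had the highest level per length of all 54 genes, with a mean over the groups of 28.4 CPM per kilobase of exon, followed by PCDHGB4 at 4.64 and PCDHGC5 at 1.74. The highest PCDHB gene per length, PCDHB2, had 0.360 CPM per kilobase, followed by PCDHB15 at 0.350 and PCDHB13 at 0.266. The highest PCDHA gene was PCDHA6 at 0.0735, followed by PCDHA4 and PCDHA14 at 0.0384 and 0.0380. Every PCDHG gene was thus above every PCDHB gene, and all but 2 of the PCDHB genes above PCDHA4. PCDHGC3 alone made up 26.98 to 61.9% of the summed PCDHG level of a library.

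**Figure D1:**
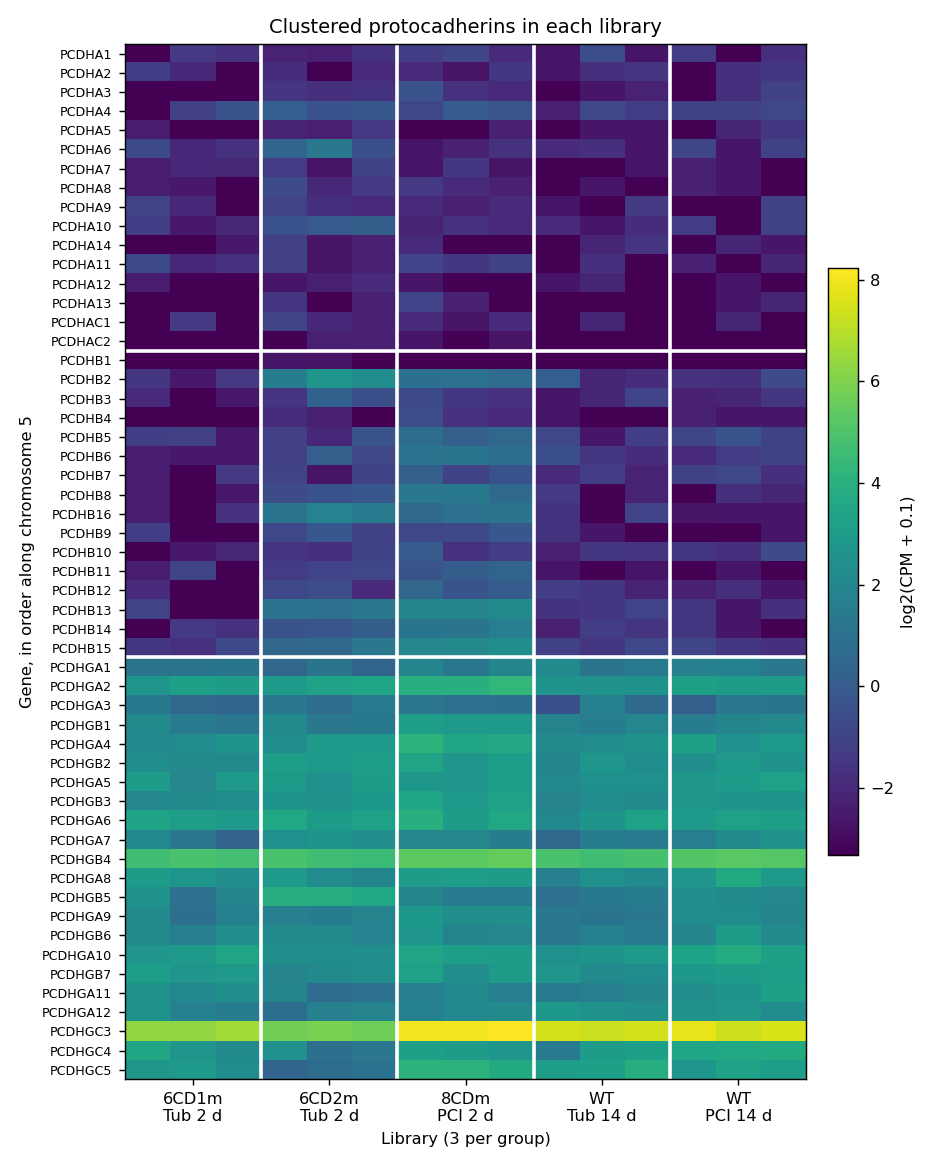
Level of each of the 54 clustered protocadherins (rows, in order along chromosome 5) in each of the 15 libraries (columns, 3 per group), as the log2 of CPM plus 0.1; white lines separate clusters and groups. The PCDHG rows are bright in all groups, with PCDHGC3 the brightest, and most PCDHB rows are brighter in the 6CD2m and 8CDm libraries than in the other 9.

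Because the PCDHA and PCDHG genes share constant exons, the counting tool divides the reads of those exons among them. Of the stretches of 150 bases in their annotated transcripts, at least 21.3% were also found in another gene for each PCDHA gene and 27.2 to 66.6% for PCDHG genes, but 0 to 18.0% for PCDHB genes. For PCDHGC3, PCDHGC5, PCDHGB5 and PCDHGB4 the shares were 34.7, 42.0, 50.6 and 66.6%. Values of single PCDHA and PCDHG genes are therefore uncertain, and sums over a cluster are given beside them.

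After the filter on low counts, which asks for about 10 counts in as many libraries as a group holds, 35 of the 54 genes were tested, namely 3 PCDHA, 10 PCDHB and all 22 PCDHG genes. The 19 genes left out had at most 22 counts in any library. For all 13 tested PCDHA and PCDHB genes, the groups in which every library reached the minimum were 6CD2m, 8CDm or both, although PCDHA4, PCDHB2 and PCDHB5 also reached it in single libraries of other groups, so a difference of those groups from the rest was built into the choice of tested genes, and their counts are read as a description. Of the 22 PCDHG genes, 21 reached it in all 5 groups.

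At an adjusted p below 0.001, the threshold of the study, 7 of the 35 genes differed between treated 6CD2m and 6CD1m cells (5 higher and 2 lower in 6CD2m), beside 13.2% of all 19535 genes tested, 6.65% higher and 6.54% lower. Between treated 6CD2m and WT cells on Tubastatin A, 6 of 35 differed (4 higher, 2 lower), beside 11.8% of all genes, 4.61% higher and 7.22% lower. Between treated 8CDm and WT cells on PCI-34051, 8 of 35 were higher and none lower, beside 11.0% of all genes, 4.69% higher and 6.27% lower. In the order given, the higher genes were 4, 3 and 7 of the 10 tested PCDHB genes. Of the 22 PCDHG genes, 1 was higher in each of these comparisons. The tested PCDHB genes entered through 6CD2m or 8CDm cells, so their calls cannot be read against the share of all genes. Between treated 6CD1m and WT cells on Tubastatin A, 1 of 35 differed and was lower, beside 0.793% of all genes, 0.271% higher and 0.522% lower. Between WT cells on Tubastatin A and on PCI-34051, 0 of 35 differed by edgeR and 0 by DESeq2, beside 0.420% of all genes by edgeR (0.333% higher and 0.0870% lower), with 13 at an unadjusted p below 0.05. The share of all genes at that unadjusted p is not given here. The comparisons with WT cells on Tubastatin A share those libraries, and both comparisons of 6CD2m cells share theirs.

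These counts depend on single libraries. Without replicate 2 of 6CD1m, replicate 2 of 6CD2m or replicate 3 of 6CD2m, 4 genes instead of 7 differed between 6CD2m and 6CD1m cells, and without replicate 2 or 3 of 6CD2m, 3 instead of 6 differed between 6CD2m and WT cells. For 8CDm against WT cells, 4 instead of 8 were called without any one of the 8CDm libraries and 2 without replicate 2 or 3 of WT cells on PCI-34051.

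**Figure D2:**
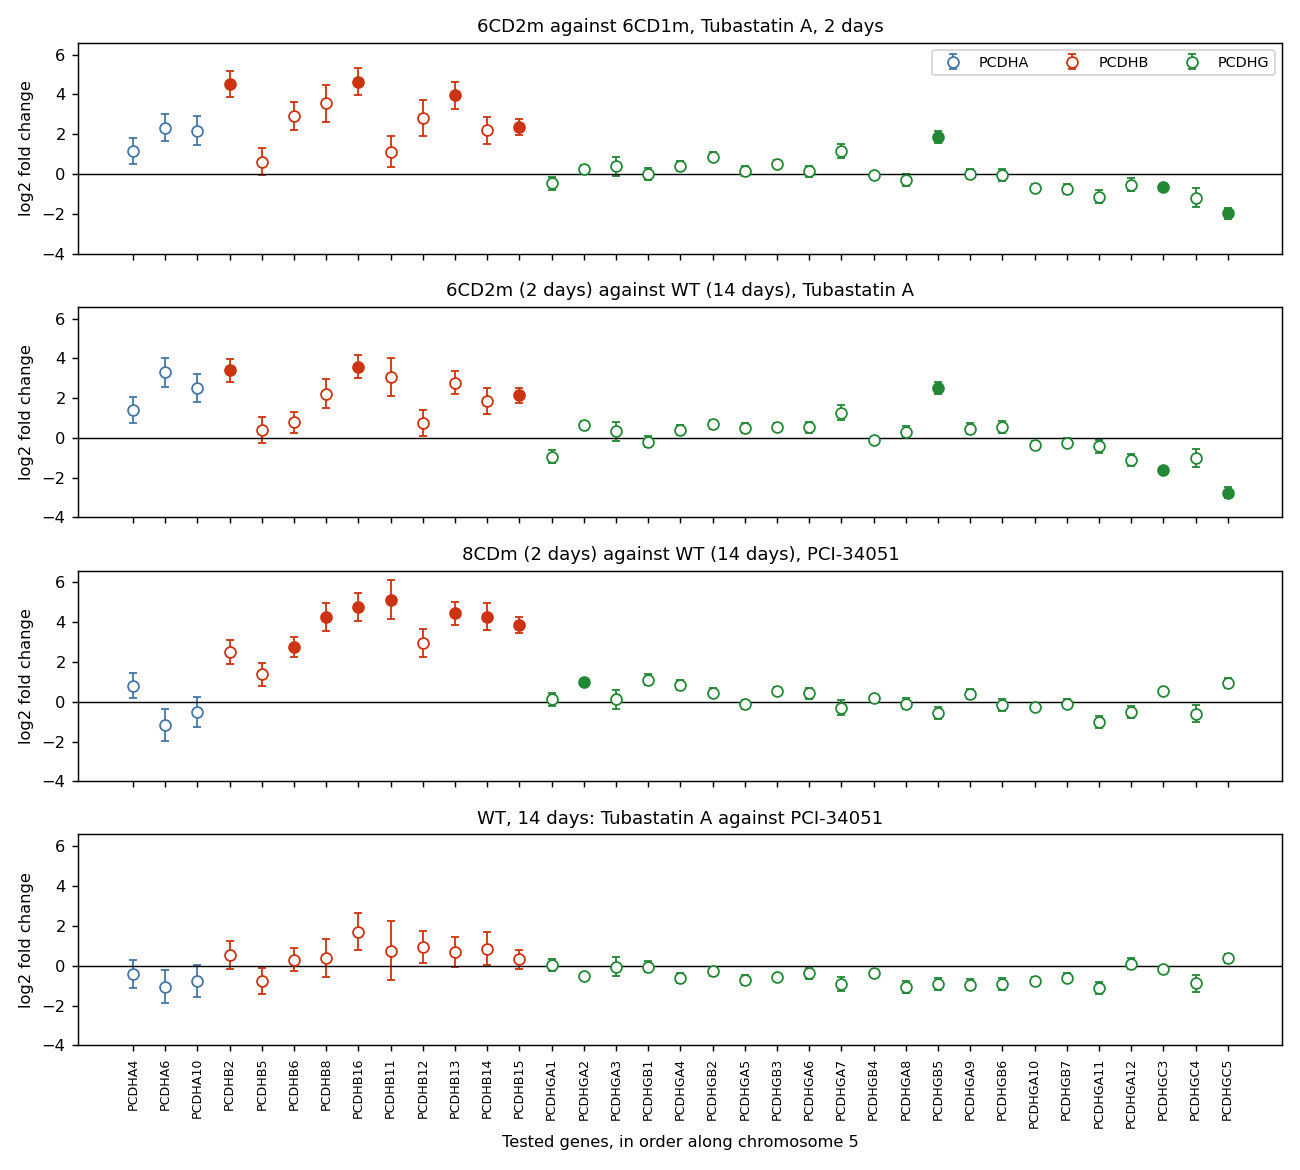
Log2 fold change of the 35 tested genes (horizontal axis, in order along chromosome 5) in 4 comparisons, with the standard error as bars; blue is PCDHA, red PCDHB and green PCDHG, and filled points passed an adjusted p of 0.001. PCDHB genes lie above 0 in all of the upper 3 panels, PCDHGC3 and PCDHGC5 lie below 0 in the upper 2, and most PCDHG genes lie below 0 in the lowest panel, where no point is filled.

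As a sum, PCDHB genes were higher in 6CD2m and 8CDm cells than in the other groups. This did not hold for every gene. PCDHB5, PCDHB7 and PCDHB10 had means of 0.392, 0.285 and 0.276 CPM in 6CD2m cells, below 0.503, 0.336 and 0.324 in WT cells on PCI-34051. The summed level of all 16 genes, tested or not, was 12.5, 18.9 and 17.3 CPM in the 6CD2m libraries and 24.7, 22.8 and 24.9 in the 8CDm libraries. In the 6CD1m libraries it was 2.36, 1.47 and 1.88 CPM, in WT cells on Tubastatin A 4.26, 2.33 and 3.23, and in WT cells on PCI-34051 2.77, 2.91 and 3.03. The 6 libraries of 6CD2m and 8CDm cells were thus apart from the other 9. The mean of 6CD2m cells was 8.53 times that of 6CD1m cells and 4.96 times that of WT cells on Tubastatin A, and the mean of 8CDm cells 8.30 times that of WT cells on PCI-34051. WT cells on either inhibitor differed by a ratio of 1.13, with overlapping libraries. In bulk RNA, fewer cells with the transcript and less transcript per cell cannot be told apart.

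**Figure D3:**
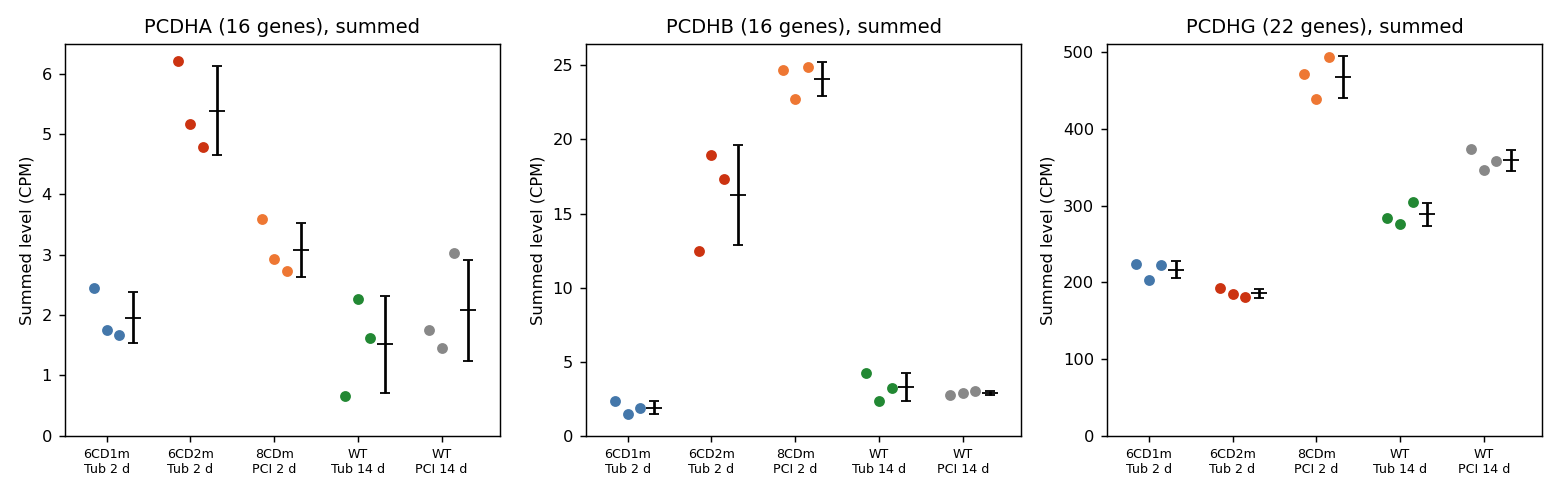
Summed level in CPM of the 16 PCDHA, 16 PCDHB and 22 PCDHG genes (vertical axes from 0) in each library, by group; points are libraries and the bar beside them is the mean with the SD (n = 3). The PCDHB sum is between 12.5 and 24.9 CPM in the 6CD2m and 8CDm libraries and at most 4.26 in the others, and the PCDHG sum is lowest in 6CD2m and highest in 8CDm cells.

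PCDHB2, the highest PCDHB gene per length, had 47, 128 and 88 counts in the 6CD2m libraries and 3, 1 and 4 in the 6CD1m libraries. It had 31, 36 and 29 counts in 8CDm cells, 18, 2 and 3 in WT cells on Tubastatin A and 4, 3 and 8 in WT cells on PCI-34051. The 6CD2m libraries were the highest of all, and the 6CD2m and 8CDm libraries did not overlap with the others. Its log2 fold change was 4.53 (SE 0.66, edgeR adjusted p = 8.37e-05) against 6CD1m cells, a ratio of summed counts per effective library size of 24.4 with an exact 95% counting interval of 12.2 to 57.0. Against WT cells on Tubastatin A it was 3.39 (SE 0.56, adjusted p = 0.000272), and 4.93 without replicate 1 of the WT libraries, the one with 18 counts. This call ended without replicate 2 or 3 of 6CD2m or of WT cells (adjusted p = 0.00139 to 0.00214). For 8CDm against WT cells it was 2.51 (SE 0.61), which did not pass (adjusted p = 0.00522). PCDHB2, PCDHB13, PCDHB15 and PCDHB16 reached the filter's minimum in every library of a group only in 6CD2m and 8CDm cells. Their test values, here and below, are therefore read as a description.

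PCDHB16 had 35, 66 and 45 counts in 6CD2m and 26, 35 and 39 in 8CDm cells. In 6CD1m cells it had 1, 0 and 3, in WT cells on Tubastatin A 4, 0 and 7, and 1 in each library of WT cells on PCI-34051. Its log2 fold change was 4.64 (SE 0.69, adjusted p = 0.000104) for 6CD2m against 6CD1m cells and 3.58 (SE 0.59, adjusted p = 0.000241) against WT cells, the latter not called without replicate 2 or 3 of 6CD2m or replicate 1 of WT cells (adjusted p = 0.00111 to 0.00168). Without replicate 3 of 6CD1m the first value was 5.91, and without replicate 3 of WT cells the second was 4.43. For 8CDm against WT cells the total of 100 against 3 counts gave a ratio of 30.6 with an exact 95% counting interval of 10.2 to 150.7 (edgeR adjusted p = 0.000156), a call that ended without replicate 2 or 3 of the WT libraries (adjusted p = 0.00112 and 0.00134). PCDHB16 was the only PCDHB gene besides PCDHB15 that passed in all 3 of these comparisons.

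PCDHB15 had 22, 27 and 42 counts in 6CD2m, 70, 79 and 91 in 8CDm and 3 to 8 in each of the 9 other libraries. Unlike PCDHB2 and PCDHB16, it was higher in 8CDm than in 6CD2m cells in every library. The log2 fold change was 2.36 (SE 0.41, adjusted p = 0.000392) for 6CD2m against 6CD1m cells, 2.14 (SE 0.38, adjusted p = 0.000535) against WT cells, and 3.85 (SE 0.39, adjusted p = 3.05e-06) for 8CDm against WT cells. The first call ended without replicate 1 or 2 of 6CD1m or replicate 3 of 6CD2m, and the second without any library but replicate 1 of 6CD2m (adjusted p = 0.00112 to 0.00406 over these fits). PCDHB13 followed the same order, with 34, 37 and 42 counts in 6CD2m and 68, 69 and 84 in 8CDm cells, and at most 7 in any other library. It passed against 6CD1m cells (log2 fold change 3.96, SE 0.67, adjusted p = 0.000325) and in 8CDm against WT cells (4.45, SE 0.59, adjusted p = 4.72e-05), but not in 6CD2m against WT cells (2.78, SE 0.56, adjusted p = 0.00133). In 6CD1m cells its 5 counts all came from replicate 1, and without that library the fitted value was 8.15. Without any other of the 6 libraries its call against 6CD1m cells ended (adjusted p = 0.00104 to 0.00168).

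**Figure D4:**
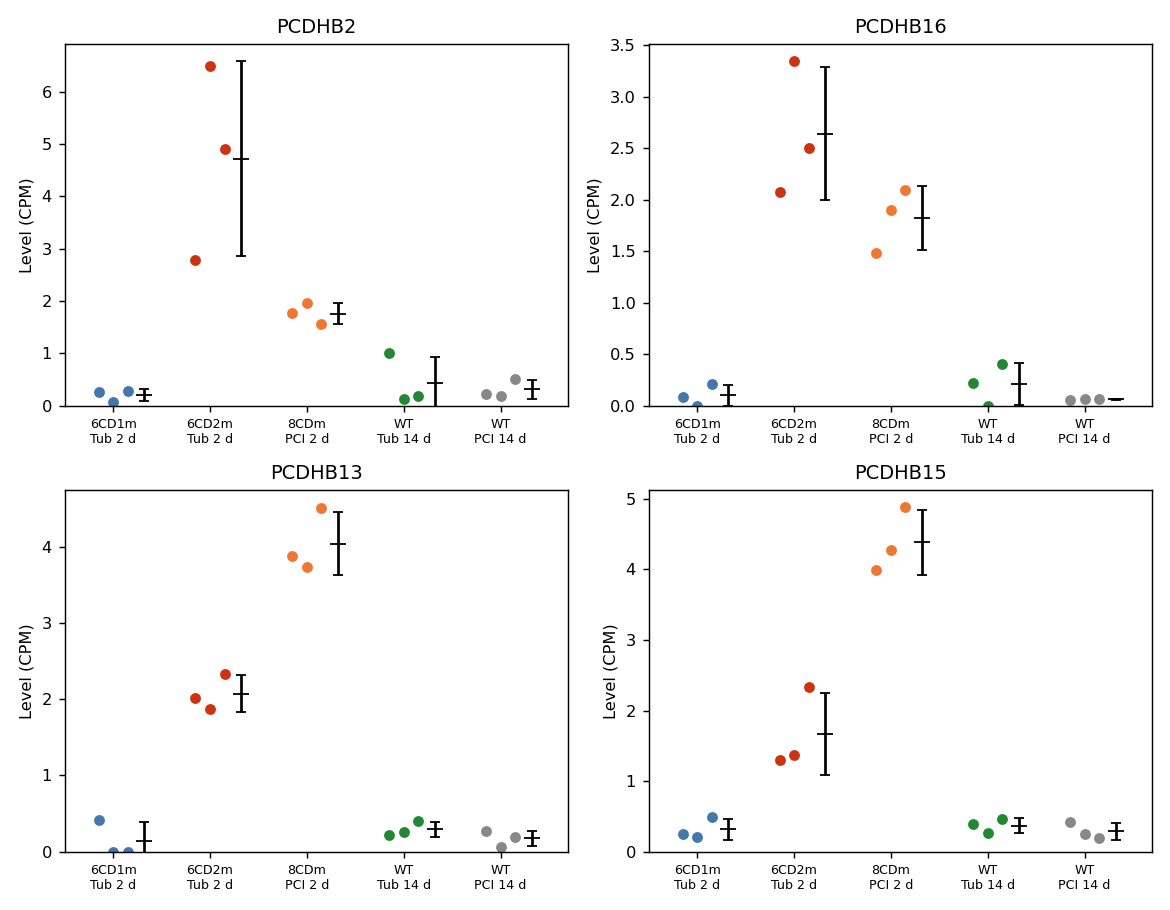
Level in CPM (vertical axes from 0) of PCDHB2, PCDHB16, PCDHB13 and PCDHB15 in each library, by group; points are libraries and the bar is the mean with the SD (n = 3). PCDHB2 and PCDHB16 have their highest mean in 6CD2m cells and PCDHB13 and PCDHB15 in 8CDm cells, and in each panel the remaining groups lie near the bottom.

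Other PCDHB genes passed in 8CDm cells alone. PCDHB14 had 38, 38 and 56 counts there and 5, 1 and 0 in WT cells on PCI-34051, a log2 fold change of 4.27 (SE 0.67, adjusted p = 0.000199), and 5.94 without replicate 1 of the WT libraries. Its call ended without replicate 3 of 8CDm or replicates 2 or 3 of WT cells (adjusted p = 0.00107 to 0.00161). PCDHB8 had 41, 45 and 27 counts against 0, 3 and 2 (4.26, SE 0.72, adjusted p = 0.000373), and PCDHB6 had 35, 39 and 32 against 3, 5 and 6 (2.75, SE 0.51, adjusted p = 0.000711). PCDHB11 had 12, 18 and 23 counts against a single count in all WT libraries on PCI-34051, a ratio of 48.6 whose exact 95% counting interval runs from 8.35 to 1955 (adjusted p = 0.000889). Its call ended without any 1 of the 6 libraries compared (adjusted p = 0.00226 to 0.00703), as did that of PCDHB6 (adjusted p = 0.00239 to 0.00369). That of PCDHB8 ended without replicates 1 or 2 of 8CDm or 2 or 3 of WT cells (adjusted p = 0.00112 to 0.00243), and its fitted value was between 3.64 and 4.96. Without replicate 2 of the WT libraries, the one with a count, the fitted value of PCDHB11 was 7.03. In 6CD2m cells these 4 genes had 12 to 17, 9 to 14, 6 to 20 and 5 to 8 counts, and none passed against 6CD1m or WT cells. That does not show that the mutant lines differ, and the test of the difference between the 6CD2m effect and the 8CDm effect called 0 of the 10 tested PCDHB genes by edgeR, with 4 at an unadjusted p below 0.05. The share of all genes at that unadjusted p is not given here. PCDHB6, PCDHB8 and PCDHB11 reached the filter's minimum in every library of a group only in 8CDm, and PCDHB14 only in 6CD2m and 8CDm cells. The test values of these genes are therefore read as a description.

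Over all 16 PCDHB genes, the libraries of 6CD2m were entirely above those of 6CD1m cells for 10 and below for 0, beside 17.1% of the 35642 genes with a count that were above and 15.8% that were below. Against WT cells on Tubastatin A this held for 8, beside 16.2% of all genes above and 15.7% below, and for 8CDm above WT cells on PCI-34051 for 12, beside 14.9% above. For 6CD1m against WT cells the libraries were apart for 1 of 16 PCDHB genes, which was lower, beside 9.40% above and 10.2% below. Among the genes with few counts, PCDHB3 had 4, 22 and 11 counts in 6CD2m and 2, 0 and 1 in 6CD1m cells, and PCDHB10 had 4, 4 and 7 against 0, 1 and 2. In WT cells PCDHB3 had 1, 2 and 7 counts on Tubastatin A and 2, 2 and 4 on PCI-34051. PCDHB10 had 2, 4 and 4 and 5, 3 and 8 there, so for both genes WT libraries reached the 6CD2m range. PCDHB9 had 8, 16 and 7 counts in 6CD2m and 8, 9 and 15 in 8CDm cells, but 0, 0 and 1 in WT cells on PCI-34051. PCDHB12 had 23, 13 and 17 counts in 8CDm cells and at most 3 in WT cells on PCI-34051 and in 6CD1m cells. PCDHB5, PCDHB7 and PCDHB4, named to complete the cluster, had at most 28, 18 and 10 counts, each in an 8CDm library. PCDHB1, whose promoter lacks TGGCGCT, had 1, 1 and 0 counts in 6CD2m cells and 0 in the other 12 libraries.

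PCDHA genes were near the limit of detection in all groups and highest in 6CD2m cells. Their summed count was 105, 102 and 86 in the 6CD2m libraries, 63, 54 and 51 in 8CDm, 29, 25 and 24 in 6CD1m, 12, 35 and 28 in WT cells on Tubastatin A and 33, 23 and 47 in WT cells on PCI-34051. The 6CD2m libraries were above all others, and their mean level was 2.75 times that of 6CD1m and 3.55 times that of WT cells on Tubastatin A. The 8CDm mean was 1.48 times that of WT cells on PCI-34051, with overlapping libraries. PCDHA6 had 21, 47 and 11 counts in 6CD2m and 1 to 8 in all other libraries, and PCDHA10 had 11, 17 and 17 against 0 to 6. Neither passed against WT cells on Tubastatin A, where the log2 fold changes were 3.29 (SE 0.72, adjusted p = 0.00247) and 2.52 (SE 0.71, adjusted p = 0.0126). PCDHA4, with 17, 13 and 14 counts in 6CD2m cells, did not pass either (1.42, SE 0.66, adjusted p = 0.113).

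Of the other PCDHA genes, PCDHA3 had 4 counts in each 6CD2m library and 0 in each 6CD1m library. It had 12, 4 and 3 counts in 8CDm cells, 0, 1 and 2 in WT cells on Tubastatin A and 0, 3 and 6 on PCI-34051. PCDHA11 had 7, 5 and 7 counts in 8CDm cells and at most 3 in WT cells. In 6CD1m and 6CD2m cells PCDHA11 had 6, 2 and 3 and 6, 1 and 2 counts, so single libraries reached the 8CDm range. PCDHA14, whose transcript shares all of its sequence with other genes, had at most 6 counts in any library. The C-type genes PCDHAC1 and PCDHAC2 had at most 7 and 2 counts. Over all 16 PCDHA genes, the libraries of 6CD2m were entirely above those of 6CD1m for 5 and above those of WT cells on Tubastatin A for 6, beside 17.1 and 16.2% of all genes with a count.

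PCDHGC3, the PCDHG gene with the highest level, was lowest in 6CD2m and highest in 8CDm cells. It had 876, 1170 and 926 counts in 6CD2m, 952, 1156 and 1394 in 6CD1m, 3185, 2411 and 2987 in WT cells on Tubastatin A, 4100, 2592 and 2925 in WT cells on PCI-34051, and 4522, 4852 and 5563 in 8CDm cells. As levels these were 54.2 ± 4.39, 86.2 ± 9.56, 168 ± 10.5, 190 ± 27.5 and 273 ± 22.4 CPM (SD, n = 3). Only the WT groups overlapped, and they did not differ by the test (log2 fold change -0.18, 95% interval -0.40 to 0.05). PCDHGC3 fell by 1.63 on the log2 scale in 6CD2m against WT cells (SE 0.12, adjusted p = 8.87e-08) and by 0.97 in 6CD1m against WT cells (SE 0.12, adjusted p = 0.000168). The second call ended without replicate 2 of 6CD1m (adjusted p = 0.00238) and without replicates 1 or 3 of the WT libraries (adjusted p = 0.00130 and 0.00127). It also fell by 0.67 in 6CD2m against 6CD1m cells (SE 0.12, adjusted p = 0.000436), a call that was lost with a correction for GC content (log2 fold change -0.46, adjusted p = 0.0167) and without any library but replicate 1 of 6CD1m.

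For 8CDm against WT cells PCDHGC3 had a log2 fold change of 0.52 (SE 0.12) that did not pass the main test (adjusted p = 0.00273) and passed with DESeq2, upper-quartile scaling, a correction for GC content and without replicate 1 of the WT libraries, with a log2 fold change between 0.48 and 0.76. The change in 6CD2m cells on Tubastatin A differed from that in 8CDm cells on PCI-34051 by -2.15 on the log2 scale (SE 0.17, adjusted p = 3.01e-07), in a test in which 3 of the 35 genes passed beside 5.16% of all genes, 1 of 35 higher beside 2.51% and 2 lower beside 2.65%. In this difference the mutated gene and the inhibitor change together and cannot be told apart.

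PCDHGC5 showed the largest fall. It had 21, 31 and 36 counts in 6CD2m, 81, 105 and 69 in 6CD1m, 160, 140 and 255 in WT cells on Tubastatin A, 122, 157 and 137 in WT cells on PCI-34051 and 313, 326 and 240 in 8CDm cells. The 6CD2m libraries were below all others. PCDHGC5 fell by 2.75 on the log2 scale against WT cells (SE 0.27, adjusted p = 2.21e-06) and by 1.97 against 6CD1m cells (SE 0.28, adjusted p = 7.53e-05). The latter call ended only in a fit of the groups compared alone (edgeR adjusted p = 0.00101). For 8CDm against WT cells the log2 fold change was 0.94 (SE 0.24, adjusted p = 0.00627) and for 6CD1m against WT cells -0.78 (SE 0.25, adjusted p = 0.0562), neither past the threshold. The difference between the 6CD2m and 8CDm changes was -3.69 (SE 0.36, adjusted p = 3.95e-06). PCDHGC4, the remaining C-type gene, had 95, 36 and 41 counts in 6CD2m and 45 to 212 elsewhere, and passed in none of the comparisons, with log2 fold changes of -1.19 (SE 0.46) against 6CD1m and -1.01 (SE 0.46) against WT cells. Without replicate 1 of 6CD2m, the library with 95 counts, these were -1.81 and -1.64 (adjusted p = 0.00980 and 0.0191), again not past the threshold.

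PCDHGB5 went the other way and stood out in 6CD2m cells. It had 246, 290 and 217 counts there, 71, 27 and 53 in 6CD1m, 66, 50 and 50 in 8CDm, 34, 38 and 50 in WT cells on Tubastatin A and 96, 71 and 61 in WT cells on PCI-34051. The lowest 6CD2m library was at 12.1 CPM and the highest library of any other group at 5.98. The log2 fold change was 2.51 (SE 0.30, adjusted p = 1.44e-05) against WT cells and 1.85 (SE 0.30, adjusted p = 0.000197) against 6CD1m cells. The latter call ended without replicate 2 of 6CD2m (adjusted p = 0.00120) and in a fit of the groups compared alone (edgeR adjusted p = 0.00270). The difference from the 8CDm change was 3.08 (SE 0.43, adjusted p = 0.000113). PCDHGB4, whose conserved promoter element has the same 26 bases, did not follow it: its level was 26.3 ± 3.33 CPM in 6CD2m, 27.6 ± 2.28 in 6CD1m and 28.0 ± 2.07 in WT cells on Tubastatin A (SD, n = 3), with 95% intervals of the log2 fold change of -0.29 to 0.15 and -0.31 to 0.13. PCDHGB5 made up 7.41% of the summed PCDHG level in 6CD2m cells and 0.652 to 1.75% in the other groups.

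**Figure D5:**
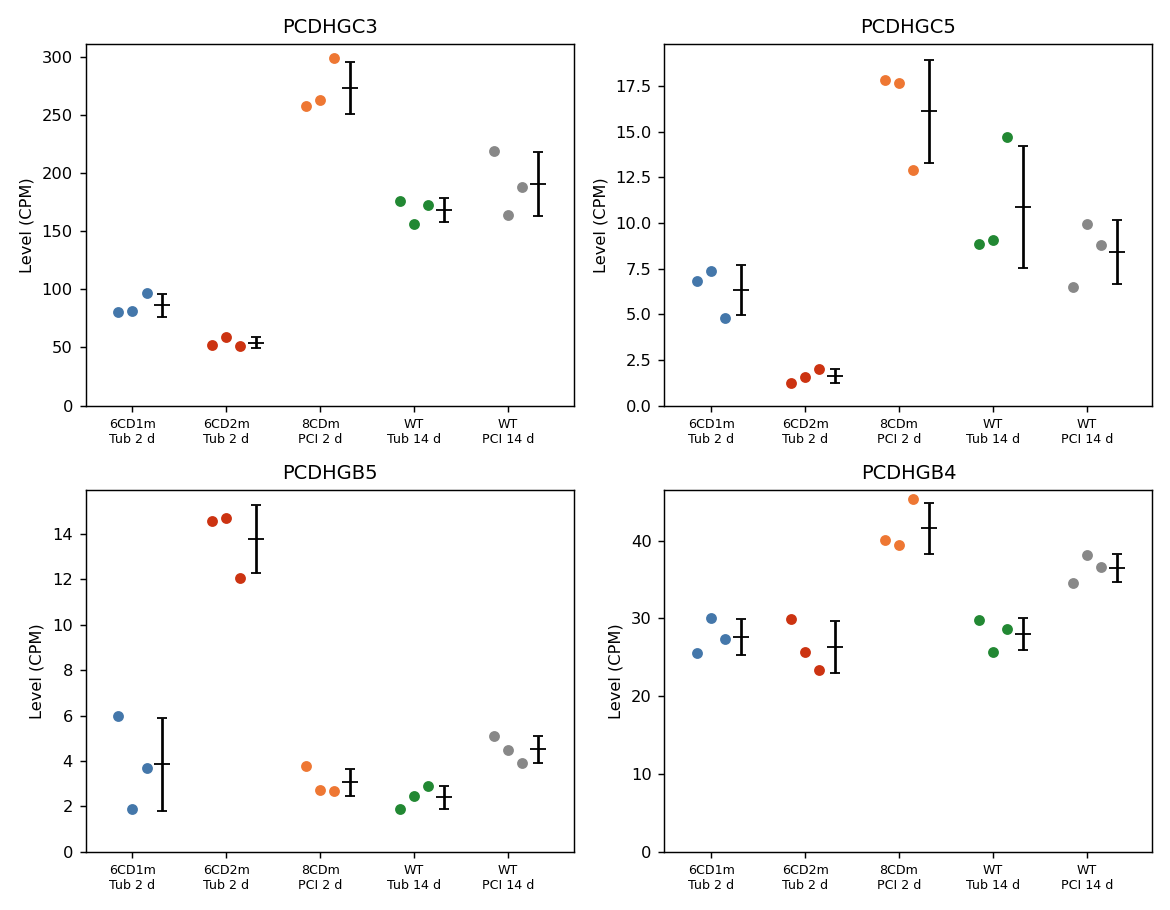
Level in CPM (vertical axes from 0) of PCDHGC3, PCDHGC5, PCDHGB5 and PCDHGB4 in each library, by group; points are libraries and the bar is the mean with the SD (n = 3). PCDHGC3 and PCDHGC5 are lowest in the 6CD2m libraries, PCDHGB5 is highest there, and PCDHGB4 is at a similar level in 6CD1m, 6CD2m and WT cells on Tubastatin A.

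The groups ranked alike by the summed PCDHG level and by PCDHGC3. The WT groups were apart in the sum, however, although their libraries overlapped for PCDHGC3. The summed level was 186 ± 5.91 CPM in 6CD2m, 217 ± 11.5 in 6CD1m, 289 ± 14.9 in WT cells on Tubastatin A, 360 ± 13.7 in WT cells on PCI-34051 and 468 ± 27.0 in 8CDm cells (SD, n = 3). Without PCDHGC3 it was 132 ± 7.82, 131 ± 11.8, 120 ± 12.2, 169 ± 13.8 and 195 ± 18.5 CPM in the same order, and of the groups compared, those of WT cells did not overlap. For the 19 PCDHGA and PCDHGB genes alone, 6CD2m cells were also apart from WT cells on Tubastatin A, with a ratio of means of 1.23. Among the PCDHGA and PCDHGB genes, PCDHGA2 (named after its values were seen) was the only other gene called. It had 268, 278 and 374 counts in 8CDm and 177, 131 and 123 in WT cells on PCI-34051, and rose by 0.97 on the log2 scale (SE 0.17, adjusted p = 0.000511), a call that ended without any of the 6 libraries but replicate 1 of WT cells (adjusted p = 0.00134 to 0.00444).

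In WT cells, many PCDHG genes were somewhat lower on Tubastatin A than on PCI-34051, without any passing the threshold. The libraries did not overlap for 13 of the 22 PCDHG genes, all lower on Tubastatin A, beside 7.62% of all genes with a count that were lower and 8.72% that were higher. The median log2 fold change of the 22 was -0.58, against 0.01 for all genes tested. At an adjusted p below 0.05, 5 were lower, which were PCDHGB4, PCDHGA8, PCDHGA9, PCDHGA10 and PCDHGA11 (named after their values were seen), with log2 fold changes of -0.38 to -1.12 and adjusted p values of 0.0292 to 0.0445. The share of all genes at that threshold is not given here. PCDHGC3 and PCDHGC5 were not among these 5 genes, with log2 fold changes of -0.18 (SE 0.12) and 0.37 (SE 0.24). The sum of the 19 PCDHGA and PCDHGB genes was 96.9, 103 and 109 CPM on Tubastatin A and 138, 161 and 148 on PCI-34051. As the counting tool divides shared exons, the genes of the cluster do not vary independently.

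Of 20 genes for chromatin architecture and silencing, 1 passed in 1 comparison: DNMT1, the maintenance DNA methyltransferase, fell by 0.46 on the log2 scale in 6CD2m against 6CD1m cells (SE 0.08, adjusted p = 0.000429). Of all genes tested, 13.2% passed in that comparison. In 6CD2m and 8CDm against WT cells, 11.8 and 11.0% of all genes did, and 0 of these 20. The list's median log2 fold change ran from -0.15 to 0.25 in 4 of the 5 comparisons of 2 groups and was 0.40 in 8CDm against WT cells, beside -0.05 to 0.01 for all genes tested. CTCF, at group means of 53.1 to 64.2 CPM, passed in none. SMC3, the cohesin subunit that KDAC8 deacetylates, was at 90.3 ± 2.50 CPM in 8CDm cells and 48.6 ± 11.5 in WT cells on PCI-34051 (SD, n = 3), a log2 fold change of 0.89 (SE 0.18) just above the threshold (adjusted p = 0.00146). RAD21, another cohesin subunit, had 0.64 (SE 0.22, adjusted p = 0.0308) in the same comparison. Of the list's other members, named after their values were seen, NIPBL, the cohesin loader, had 0.61 (SE 0.12, adjusted p = 0.00119) there, REST, a repressor of neuronal genes, 0.75 (SE 0.16, adjusted p = 0.00175), and the cohesin subunits STAG1 and STAG2 0.54 (SE 0.12, adjusted p = 0.00285) and 0.84 (SE 0.23, adjusted p = 0.0115), none past the threshold. Not all cohesin genes were higher there: the subunit SMC1A had -0.04 (SE 0.09, adjusted p = 0.772) and MAU2, of the loader, -0.35 (SE 0.15, adjusted p = 0.0860). SMCHD1 had 0.57 (SE 0.16, adjusted p = 0.0127) there and -0.53 (SE 0.16, adjusted p = 0.0202) in 6CD2m against WT cells. Some members of the list were lower in 8CDm against WT cells, also short of the threshold. Among them were DNMT1 at -0.36 (SE 0.08, adjusted p = 0.00276) and TRIM28 at -0.33 (SE 0.08, adjusted p = 0.00431). In 6CD2m against WT cells DNMT1 had -0.36 (SE 0.08, adjusted p = 0.00261).

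Of 12 genes for cleavage of protocadherins and for their signalling, APH1A, a γ-secretase subunit, fell in 6CD2m cells by 1.01 on the log2 scale against WT cells (SE 0.09, adjusted p = 8.24e-07) and by 0.61 against 6CD1m cells (SE 0.09, adjusted p = 0.000107). FYN, a Src-family kinase, fell by 1.09 in 8CDm against WT cells (SE 0.10, adjusted p = 7.43e-07) and rose by 0.54 in 6CD2m against 6CD1m cells (SE 0.09, adjusted p = 0.000398). The other 10 passed in none of the comparisons. Of all genes tested, 13.2% passed in 6CD2m against 6CD1m cells and 0.793% in 6CD1m against WT cells. Against WT cells, 11.8% passed for 6CD2m and 11.0% for 8CDm cells. Among 7 tested protocadherins outside the clusters, PCDH1 rose in 6CD2m against 6CD1m cells (1.88, SE 0.11), in 6CD2m against WT cells (1.26, SE 0.10) and in 8CDm against WT cells (1.37, SE 0.10), with adjusted p values of 7.59e-09, 2.62e-07 and 1.51e-07. PCDH18 fell in both comparisons of 6CD2m cells, by 2.93 (SE 0.53) and 3.31 (SE 0.52), PCDH20 fell by 4.55 (SE 0.87) against 6CD1m cells, and PCDH7 fell by 2.57 (SE 0.47) in 8CDm against WT cells. Of 7 tested cadherins and catenins, CDH4, a classical cadherin, rose in 4 of the 5 comparisons of 2 groups, by 1.00 to 2.60 on the log2 scale, CDH13 rose by 1.28 (SE 0.13) in 6CD2m against 6CD1m cells, and CDH11 fell by 0.97 (SE 0.18) in 6CD2m against WT cells.

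Of 34 tested protein-coding genes within 1 Mb, 3 were higher and 2 lower in 6CD2m against 6CD1m cells, 2 higher and 4 lower in 6CD2m against WT cells, and 3 higher and 0 lower in 8CDm against WT cells, in all 5, 6 and 3 of 34 beside 13.2, 11.8 and 11.0% of all genes tested. Their median log2 fold changes in these comparisons were 0.05, -0.02 and 0.03. Besides PCDH1, which lies in this interval, those that passed included SPRY4, which fell by 1.25 (SE 0.10) in 6CD2m against WT cells, HBEGF, which rose by 1.26 (SE 0.16) in 6CD2m against 6CD1m cells, and TAF7, which lies between the PCDHB and PCDHG clusters and rose by 0.71 (SE 0.14) in 8CDm against WT cells.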

How the data were processed

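Total RNA of 15 HT1080 libraries was sequenced after depletion of ribosomal RNA. The submitters' processing notes name Trimmomatic 0.39, Bowtie2 2.4.5, RSEM 1.3.3, DESeq2 1.38.2 and the build GRCh38. The gene annotation release is not given in the sources used here. The authors deposited expected counts per gene, without normalization, which were rounded to whole numbers here (21.8% of nonzero values were not whole, and 84.8% of those of PCDHG genes). Totals of 10932437 to 19983699 counts set the precision, and counting intervals cover counting error only.

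Groups were taken from the sample labels. In R 4.3.3, genes were filtered with filterByExpr of edgeR 4.0.16, scaled by TMM and fitted for all 15 libraries in 1 quasi-likelihood model with a mean per group, with Benjamini-Hochberg adjustment over all 19535 tested genes. CPM are relative to TMM-scaled totals, and 95% intervals are the estimate ± 1.96 SE. Replicate numbers were checked for pairing by correlating deviations from group means. In the WT groups, same-numbered libraries were correlated (r = 0.505, 0.235 and 0.169). Replicate 3 on Tubastatin A and replicate 2 on PCI-34051 were correlated as well (r = 0.254), so the numbers set apart only replicate 1. The fit with the replicate block also called 0 members between the WT groups. The numbers did not pair the other groups. In data simulated for 6CD2m against 6CD1m cells, 27.5% of 200 genes changed 2-fold (18931 genes) and 65% of those changed 4-fold (18938 genes) were called, with 0 false calls. Positions are from GENCODE 29, which matched 57055 gene identifiers, and promoters from RefSeq.

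The members and gene lists were chosen with earlier results of these data known. Named genes were the C-type genes, up to 6 called members with the largest fold change in each direction, the 3 highest per length in each cluster, and members with at most 3 counts in all libraries of 1 group and more in all of another. In the other lists, genes past the test and SMC3, CTCF, RAD21, SMCHD1, HDAC6 and HDAC8 were named. DESeq2, upper-quartile scaling, no filter, an adjusted p below 0.05, a fit of only the groups compared, a replicate block, offsets for GC content and leaving out each library were tried as alternatives.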

Additional observations from a re-analysis of the deposited data

Results flagged for a closer look

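For 3 members, the change of 6CD2m against WT cells on Tubastatin A differed from that of 8CDm against WT cells on PCI-34051 in a test of the difference itself (edgeR's quasi-likelihood interaction, adjusted p below 0.001). PCDHGC5 had a difference of -3.69 on the log2 scale (SE 0.36, adjusted p = 3.95e-06), with the 6CD2m libraries below and the 8CDm libraries above those of the WT cells on the same inhibitor. PCDHGC3 had a difference of -2.15 (SE 0.17, adjusted p = 3.01e-07), again with all 6CD2m libraries below and all 8CDm libraries above WT. PCDHGB5 had a difference of 3.08 (SE 0.43, adjusted p = 0.000113), with the 6CD2m libraries above and the 8CDm libraries below WT. All 3 calls were kept under each of the 19 alternatives tried, with adjusted p values of at most 5.61e-06, 3.49e-05 and 0.000611 for PCDHGC3, PCDHGC5 and PCDHGB5. The mutated gene and the inhibitor changed together in this contrast, and the division of reads of the shared PCDHG exons may differ between libraries, which was not tested.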

How the results depend on the processing

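The number of members called, with 7, 0, 1, 6, 8 and 3 in the order 6CD2m against 6CD1m, WT on Tubastatin A against WT on PCI-34051, 6CD1m against WT, 6CD2m against WT, 8CDm against WT, and the difference of the last pair, became 19, 5, 1, 18, 16 and 7 at an adjusted p below 0.05. The shares of all genes called at that threshold and under the alternatives below are not given here. These counts are therefore not read as an excess. With the replicate block it was 5, 0, 1, 5, 3 and 3. In the comparisons other than that of the WT groups the numbers did not pair the samples (r between -0.41 and 0.19), and in the WT groups they set apart only replicate 1. A fit of only the groups compared gave 2, 0, 0, 6, 3 and 3, and GC offsets with the replicate block gave 5 for 8CDm against WT. The 2 kept by the former fit in 6CD2m against 6CD1m were PCDHB2 and PCDHB16. The calls of PCDHB13, PCDHB15, PCDHGB5, PCDHGC3 and PCDHGC5 ended there. Leaving out 1 library gave 4 to 6, 0 to 0, 0 to 1, 3 to 6, 2 to 7 and 3 to 3. With GC offsets, 5 members were higher and 1 lower in 6CD2m against 6CD1m. Of the values of single members under the alternatives, 404 kept direction and side of the threshold, 80 fell short of it, 5 newly passed and 2 changed sign. Those were PCDHGC4 in 6CD1m against WT (0.18, not called), at -0.24 without replicate 1 of 6CD1m and -0.23 without replicate 1 of WT on Tubastatin A, within a range of -0.24 to 0.46 when single libraries were left out. With upper-quartile scaling, the log2 ratio of the summed PCDHG level was -0.39 in place of -0.32 between the WT groups, -0.30 in place of -0.41 for 6CD1m against WT and -0.55 in place of -0.64 for 6CD2m against WT, and the median of all genes moved from -0.01 to 0.10 for 6CD1m against WT and from 0.00 to 0.13 for the difference. The causes were not tested. At these depths, 13 PCDHA genes and 6 PCDHB genes were too low to test.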

Other observations

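The pseudogenes of the clusters, which are no members, were also counted. PCDHB18P had 4 to 7 counts in the 6CD2m and 6 to 10 in the 8CDm libraries, and 0 to 5 in the other groups. PCDHB19P had 1 to 4, 1 to 7 and 0 to 2 counts in the same order, and PCDHB17P 0 to 1, 0 to 6 and 0 to 2. PCDHGB8P and PCDHGB9P had 12 to 67 and 5 to 25 counts over all 15 libraries.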
